A study of Homo sapiens with 4 samples.

Results

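The insulin-like growth factor (IGF) axis was examined in SK-N-BE(2) neuroblastoma (NB) cells with and without knockdown of SAPCD2. The axis was taken as 10 genes of the 64252 in the count table. They comprise the ligands IGF1 and IGF2, the receptors IGF1R, IGF2R and INSR, and the binding proteins IGFBP2, IGFBP3, IGFBP4, IGFBP5 and IGFBP6. All 10 were found by their GENCODE symbols. The members were chosen by gene family with the differences between the sh-Scb and sh-SAPCD2 columns of the same table in view, so their levels and differences are given as a description. No p is given for them, and where edgeR's call of a member is stated it is part of that description and not evidence for a difference.

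SK-N-BE(2) is an established MYCN-amplified human NB line, and the study asked which genes depend on SAPCD2 in it. RNA-seq libraries came from cells with a scramble shRNA (sh-Scb, 2 libraries) and from cells with an shRNA against SAPCD2 (sh-SAPCD2, 2 libraries). All libraries come from the same line and, within a group, from the same shRNA label, and no untransduced cells and no rescue were among them. The labels do not say that the libraries of a group came from separate cultures, so the p-values below measure the spread between these libraries, which may be technical.

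IGF1 and IGF2 are secreted ligands that act through IGF1R, a receptor tyrosine kinase that feeds the PI3K-AKT-mTOR and RAS-ERK cascades, and IGF2 also binds the A form of the insulin receptor encoded by INSR. IGF2R carries IGF2 to the lysosome and removes it, and the binding proteins hold the ligands outside the cell until proteases such as PAPP-A cut them. In NB, IGF2 is a known growth factor of the tumor cells and their surroundings.

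The libraries held from 25347900 to 31850997 counts, and counts were scaled to CPM, counts relative to the library's total, with TMM factors. A count of 3 in a library, taken as the smallest detectable amount, equaled 0.0955 to 0.119 CPM. This limit covers counting error only. After a filter on low counts, 18779 genes were tested with the quasi-likelihood test of edgeR, and a gene was called at a Benjamini-Hochberg adjusted p under 0.05. SAPCD2 itself, the target, had 83.6 and 82.2 CPM in the sh-Scb libraries and 35.4 and 52.5 CPM in the sh-SAPCD2 libraries. Its level was thus lower in both sh-SAPCD2 libraries, with 42.7% and 63.3% of the control mean left. Its log2 fold change was -0.91 (SE 0.193, edgeR adjusted p = 0.0206), and it stood at an adjusted p of 0.0749 without the filter on low counts.

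The defining genes of the line and of other cell types were checked beside the IGF axis. All 8 adrenergic NB markers were detected and tested, and they summed to 5352 and 5233 CPM in the sh-Scb libraries and 7588 and 9364 CPM in the sh-SAPCD2 libraries. MYCN alone was called higher among them, with 3235 and 3178 CPM against 5904 and 7091 CPM, while ISL1 and DBH were among those called lower. The 10 mesenchymal markers summed to 1788 and 1786 CPM in the sh-Scb libraries and 1221 and 1239 CPM in the sh-SAPCD2 libraries. VIM and FN1 were called lower, THY1 was called higher, and PRRX1 was at 0 in every library. Schwann cell markers summed to 2.54 to 3.91 CPM in the sh-Scb libraries and 5.02 to 7.29 CPM in the sh-SAPCD2 libraries with SOX10 at 0. Endothelial markers summed to at most 1.03 CPM in any library. Leukocyte markers summed to 9.52 to 10.2 CPM in the sh-Scb libraries and 12.1 to 14.1 CPM in the sh-SAPCD2 libraries with CD3E at 0. VWF and CD14 were called higher, from at most 43 counts in a library. The part of these marker shifts in the values below was not tested. In bulk RNA, fewer cells of a type and less RNA per cell cannot be told apart.

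IGF1R and IGFBP4, the members with the highest and the lowest fold change, are shown with the other receptors by the 250 bases before their annotated starts, because the receptor mRNAs were all higher after knockdown while IGFBP4 was lower. The sequences are from RefSeq (GRCh38.p14), 5′ to 3′ on the strand of the gene. Capitals mark GC boxes (GGGCGG), E-boxes (CACGTG), which are bound by MYC family proteins, and TATA boxes (TATAAA), each searched on both strands. The IGF1R window is chr15:98648289-98648538 on the + strand, the IGF2R window is chr6:159968832-159969081 on the + strand, the INSR window is chr19:7294415-7294664 on the - strand, and the IGFBP4 window is chr17:40443200-40443449 on the + strand.
IGF1R: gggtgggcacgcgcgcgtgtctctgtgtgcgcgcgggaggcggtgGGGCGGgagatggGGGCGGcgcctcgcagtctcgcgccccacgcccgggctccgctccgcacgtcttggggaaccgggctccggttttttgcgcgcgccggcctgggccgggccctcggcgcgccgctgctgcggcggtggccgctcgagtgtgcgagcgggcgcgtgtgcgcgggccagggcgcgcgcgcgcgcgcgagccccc
IGF2R: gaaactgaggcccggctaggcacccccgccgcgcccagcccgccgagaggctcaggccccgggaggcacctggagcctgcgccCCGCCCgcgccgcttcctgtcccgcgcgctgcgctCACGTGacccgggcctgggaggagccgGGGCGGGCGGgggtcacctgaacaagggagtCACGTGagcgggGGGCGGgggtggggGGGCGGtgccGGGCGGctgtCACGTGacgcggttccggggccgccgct
INSR: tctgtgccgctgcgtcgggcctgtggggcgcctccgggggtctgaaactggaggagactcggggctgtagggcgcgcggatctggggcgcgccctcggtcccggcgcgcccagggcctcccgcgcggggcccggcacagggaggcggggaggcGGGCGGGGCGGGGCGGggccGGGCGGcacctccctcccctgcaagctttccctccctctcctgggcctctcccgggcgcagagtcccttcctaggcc
IGFBP4: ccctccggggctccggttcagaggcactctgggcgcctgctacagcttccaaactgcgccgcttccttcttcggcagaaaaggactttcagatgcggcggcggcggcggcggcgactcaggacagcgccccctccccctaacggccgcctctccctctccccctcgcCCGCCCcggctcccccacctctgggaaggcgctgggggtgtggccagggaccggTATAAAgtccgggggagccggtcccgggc

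The receptor promoters were rich in GC. GC content was 81.2% for IGF1R, 79.2% for IGF2R and 78.4% for INSR, all above the upper quartile of 68.0% over 35116 promoters, whose median was 58.0%. IGF2R held 6 GC boxes, INSR held 4 and IGF1R held 2. Neighboring GC boxes in the INSR and IGF2R windows overlap each other by their letters, and no GC box overlapped an E-box or a TATA box. At least 1 GC box was found in 42.6% of all promoters. The E-box occurred 3 times in the IGF2R window and in no other member window, against 6.34% of all promoters with at least 1. IGFBP4 had a GC content of 71.6%, with 1 GC box and the only TATA box of the member windows, a motif present in 10.7% of all promoters. The E2F motifs TTTCCCGC, TTTGGCGC, TTTCGCGC and TTTGCCGC were present in 2.79% of all promoters and in none of the member windows, which says only that these letters do not occur there. Windows were found for 9 of the 10 members, and IGFBP3 (76.0% GC), IGFBP5 (61.2%), IGFBP6 (61.2%), IGFBP2 (56.4% to 69.2% over 3 windows) and IGF1 (39.6% in the lower of its windows) made up the rest.

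Of the ligands, IGF2 was abundant and IGF1 was at the limit of detection. IGF1 (ENSG00000017427, chr12:102395874-102481744, - strand, hg38 with GENCODE 44) had 2 and 0 counts in the sh-Scb libraries and 3 and 0 counts in the sh-SAPCD2 libraries. Every library was thus at or under 3 counts, and no fold change is given. IGF2 (ENSG00000167244, chr11:2129112-2158391, - strand) had 174 and 184 CPM in the sh-Scb libraries, from 4816 and 5060 counts, and 306 and 376 CPM in the sh-SAPCD2 libraries, from 7740 and 11807 counts. Both sh-SAPCD2 libraries were above both sh-Scb libraries. The means were 179 ± 6.76 CPM (SD, n = 2) and 341 ± 49.6 CPM (SD, n = 2), a ratio of 1.90 and a log2 fold change of 0.93 (SE 0.127). With a correction for GC content and length the log2 fold change was 0.73.

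IGF2 shares its locus with several annotated genes, and the strandedness of the counting is not given in the sources used here, so reads of antisense partners cannot be told apart. IGF2-AS, an antisense lncRNA, had 37 and 32 counts in the sh-Scb libraries and 81 and 139 in the sh-SAPCD2 libraries, a small number beside those of IGF2. INS-IGF2, the readthrough transcript, and MIR483, a miRNA gene inside IGF2, had at most 1 count in any library. A lncRNA on the same strand, ENSG00000240801, had none.

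All 3 receptor mRNAs were higher in both sh-SAPCD2 libraries. IGF1R (ENSG00000140443, chr15:98648539-98964530, + strand, 21 exons in its canonical transcript), the signaling receptor of the axis, had 259 and 255 CPM in the sh-Scb libraries (7166 and 7006 counts) and 702 and 663 CPM in the sh-SAPCD2 libraries (17763 and 20817 counts). The groups did not overlap, and the libraries within each group lay close together. The mean rose from 257 ± 3.39 CPM to 682 ± 27.5 CPM (SD, n = 2 each), a ratio of 2.65 and a log2 fold change of 1.41 (SE 0.0938), which was the highest of the members.

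IGF2R (ENSG00000197081, chr6:159969082-160113507, + strand, 48 exons), the receptor that clears IGF2, had 264 and 259 CPM in the sh-Scb libraries and 464 and 430 CPM in the sh-SAPCD2 libraries. The groups did not overlap, and the ratio of means was 1.71 (log2 fold change 0.77, SE 0.0959). INSR (ENSG00000171105, chr19:7112255-7294414, - strand, 22 exons), the insulin receptor, had 45.3 and 44.5 CPM in the sh-Scb libraries and 70.9 and 75.1 CPM in the sh-SAPCD2 libraries. Its groups did not overlap either, with a ratio of 1.63 (log2 fold change 0.70, SE 0.109). With a control library left out, IGF2R (without sh-Scb replicate 2, 0.76) and INSR (without sh-Scb replicate 1, 0.71, or replicate 2, 0.69) kept their fold changes but were no longer called.

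The receptors therefore moved in the same direction by unequal amounts. Per kilobase of exon union, the ratio of IGF1R to INSR was 4.45 in both sh-Scb libraries and 7.68 and 6.86 in the sh-SAPCD2 libraries. The ratio of IGF2R to IGF1R was 0.628 in both sh-Scb libraries and 0.408 and 0.400 in the sh-SAPCD2 libraries. The groups did not overlap in either ratio, and IGF1R was the receptor that gained most. Genes inside or across the receptor loci had few counts beside them. CHP1P2, a pseudogene in IGF2R, had 155 to 194 counts per library and AIRN, antisense to IGF2R, had 5 to 13, while SYNM-AS1, antisense to the end of IGF1R, had 6 to 30.

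**Figure D1:**
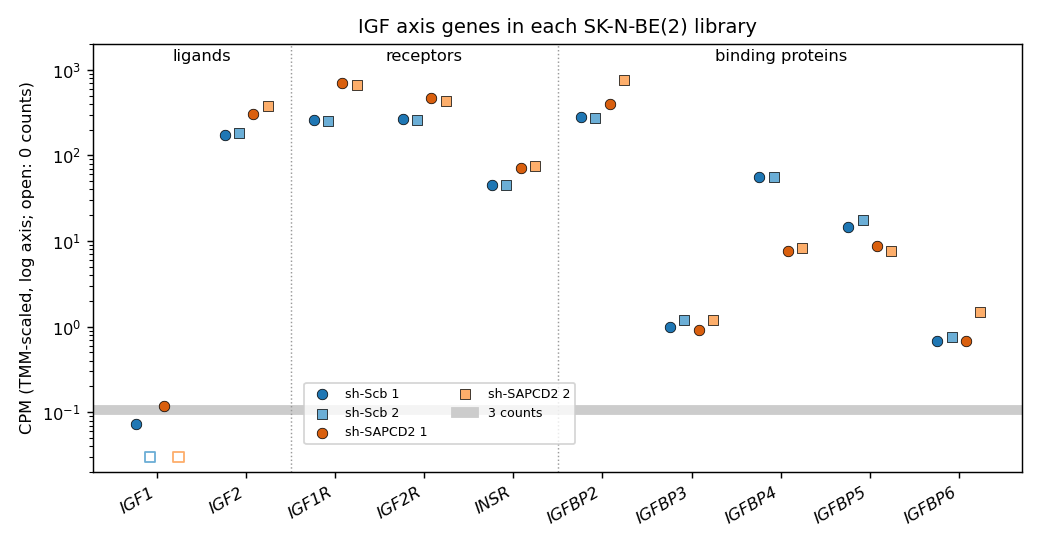
TMM-scaled CPM on a log axis for the 10 IGF axis genes in the 4 libraries, with sh-Scb in blue and sh-SAPCD2 in orange, circles for replicate 1 and squares for replicate 2. The grey band marks 3 counts and open symbols mark a count of 0, which are drawn at the foot of the axis; the 3 receptors and IGF2 sit higher in both sh-SAPCD2 libraries, and IGFBP4 falls from 56.6 and 55.3 CPM to 7.62 and 8.22 CPM.

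The binding proteins did not move as a group. IGFBP4 and IGFBP5 were lower, IGFBP2 was higher, and IGFBP3 and IGFBP6 overlapped between the groups. IGFBP4 (ENSG00000141753, chr17:40443450-40457725, + strand, 4 exons), which binds both ligands and is the main substrate of the protease PAPP-A, had 56.6 and 55.3 CPM in the sh-Scb libraries, from 1564 and 1522 counts. In the sh-SAPCD2 libraries it had 7.62 and 8.22 CPM, from 193 and 258 counts. These equal 13.6% and 14.7% of the control mean, and no library of one group came near the other.

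The mean of IGFBP4 was 56.0 ± 0.922 CPM in sh-Scb and 7.92 ± 0.418 CPM in sh-SAPCD2 (SD, n = 2 each), which is 7.07-fold lower. The log2 fold change of -2.82 (SE 0.135) was the lowest of the members, and over 12 alternative settings it lay between -3.06 and -2.77. IGFBP5 (ENSG00000115461, chr2:216672105-216695549, - strand, 4 exons), a binding protein that also attaches to extracellular matrix, had 14.4 and 17.7 CPM in the sh-Scb libraries and 8.69 and 7.55 CPM in the sh-SAPCD2 libraries. Its groups did not overlap, with a 1.98-fold lower mean and a log2 fold change of -0.98 (SE 0.184), and without sh-Scb replicate 2 the value was -0.83 and no longer called. DIRC3-AS1, which overlaps IGFBP5 on the other strand, had at most 2 counts in a library.

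IGFBP2 (ENSG00000115457, chr2:216632828-216664436, + strand), a binding protein with a preference for IGF2, had 284 and 271 CPM in the sh-Scb libraries and 403 and 762 CPM in the sh-SAPCD2 libraries. Both sh-SAPCD2 libraries were above both controls, but they differed from each other by a ratio of 1.89. Of 15682 tested genes with a mean of at least 1 CPM, 3.93% lay at least as far apart between the sh-SAPCD2 libraries. The log2 fold change of 1.07 (SE 0.278) became 0.62 with a correction for GC content and length on all libraries. It was 0.54 without sh-SAPCD2 replicate 2 and 1.45 without sh-SAPCD2 replicate 1. IGFBP2 was not called by DESeq2 or without the filter on low counts. By contrast, the same libraries differed by a ratio of 1.08 for IGFBP4 and 0.945 for IGF1R.

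IGFBP2 and IGFBP5 are neighbors that end toward each other on chromosome 2, with 7668 bases and no annotated gene of the table between them. Their mRNAs moved in opposite directions, 1.07 and -0.98 on the log2 scale. IGFBP3 (ENSG00000146674, chr7:45912245-45921874, - strand), the main carrier of IGFs in serum, had 27 and 33 counts in the sh-Scb libraries and 23 and 37 counts in the sh-SAPCD2 libraries, about 1 CPM in each. IGFBP6 (ENSG00000167779, chr12:53097436-53102345, + strand), which prefers IGF2, had 19 and 21 counts in the sh-Scb libraries and 17 and 47 counts in the sh-SAPCD2 libraries. Both overlapped between the groups, with log2 fold changes of -0.05 (SE 0.362) and 0.59 (SE 0.487), and a difference was not detectable at this depth. The sign of either depended on which library was left out.

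**Figure D2:**
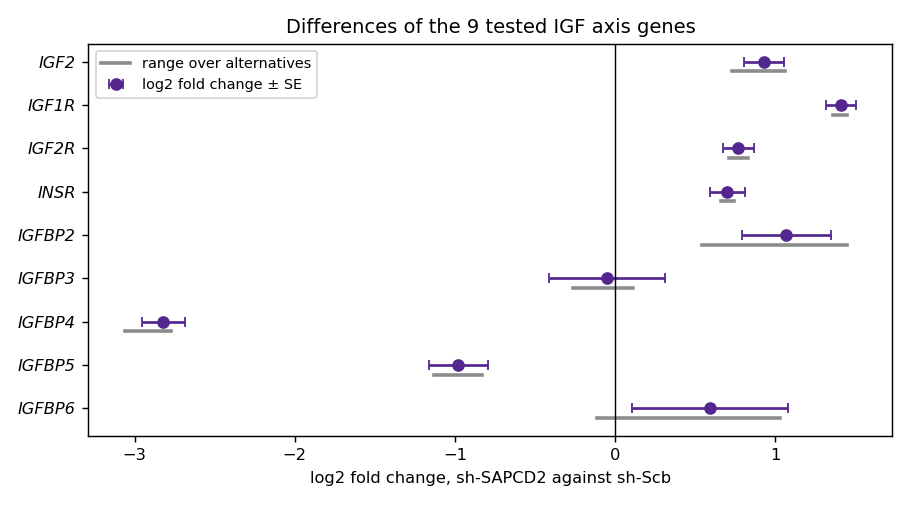
Log2 fold change of sh-SAPCD2 against sh-Scb from edgeR for the 9 tested IGF axis genes, as points with the SE as bars, and the lowest to highest value over the alternative settings as grey lines below them. IGF1R (1.41) and IGFBP4 (-2.82) lie at the ends with narrow grey lines, IGFBP2 spans 0.54 to 1.45, and those of IGFBP3 and IGFBP6 cross 0.

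Across the axis, 9 of the 10 members passed the filter on low counts. Of these, 5 were called higher (IGF2, IGF1R, IGF2R, INSR and IGFBP2), beside 12.4% of all tested genes, and 2 were called lower (IGFBP4 and IGFBP5), beside 12.5%. With an absolute log2 fold change over 1 as well, IGF1R and IGFBP2 were called higher, beside 4.69% of all tested genes, and IGFBP4 lower, beside 5.15%. The groups did not overlap for 7 of the 9, beside 67.0% of all tested genes. The median log2 fold change was 0.70 over the 9 members and 0.02 over all tested genes. Since the members were chosen on this contrast, nothing is read from these counts.

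Levels of different members were compared per kilobase of exon union. In the sh-Scb libraries the order was IGFBP2 (58.5 ± 1.93 CPM per kilobase), IGFBP4 (25.4 ± 0.418), IGF2 (25.1 ± 0.945), IGF1R (18.4 ± 0.243), IGF2R (11.6 ± 0.154), INSR (mean 4.14), IGFBP5 (2.48 ± 0.368), IGFBP6, IGFBP3 and IGF1 (mean ± SD, n = 2). IGFBP4 and IGF2 overlapped, and the other neighbors in the order did not. In the sh-SAPCD2 libraries IGFBP2 led with 123 ± 53.5 CPM per kilobase, followed by IGF1R (48.9 ± 1.97) and IGF2 (47.7 ± 6.95), which overlapped, then IGF2R (19.8 ± 1.07) and INSR (6.74 ± 0.270). IGFBP4, in the same unit, had fallen from second to sixth place with 3.59 ± 0.189, next to IGFBP5 with 1.26 ± 0.125. With the canonical or the longest transcript as the length, IGF2 stood in place 2 and IGFBP4 in place 3 in sh-Scb.

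The make-up of the binding protein mRNAs shifted accordingly. Per kilobase of exon union, IGFBP4 made up 29.0% and 29.2% of the 5 binding proteins in the sh-Scb libraries and 3.82% and 2.23% in the sh-SAPCD2 libraries. IGFBP2 made up 67.7% and 66.6% in the sh-Scb libraries and 93.9% and 96.2% in the sh-SAPCD2 libraries. The shares depend on the length given to IGFBP2, whose canonical transcript of 1414 bases is shorter than its exon union of 4742 bases. With canonical transcripts, the share of IGFBP4 was 11.2% and 11.4% in sh-Scb and 1.19% and 0.682% in sh-SAPCD2, so the groups stood apart under both lengths.

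The ratio of IGFBP2 to IGFBP4 per kilobase of exon union was 2.33 and 2.28 in the sh-Scb libraries and 24.6 and 43.1 in the sh-SAPCD2 libraries. The ratio of IGF2 to the summed binding proteins was 0.288 ± 0.0171 in sh-Scb (SD, n = 2) and 0.473 and 0.315 in the sh-SAPCD2 libraries, both above the sh-Scb libraries. With canonical transcripts this second ratio was 0.136 and 0.149 in sh-Scb and 0.188 and 0.123 in sh-SAPCD2, where the groups overlapped. The summed binding protein mRNA was 88.5 and 85.8 CPM per kilobase in sh-Scb and 90.5 and 167 in sh-SAPCD2 by exon union, so the sum was not lower in either sh-SAPCD2 library.

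**Figure D3:**
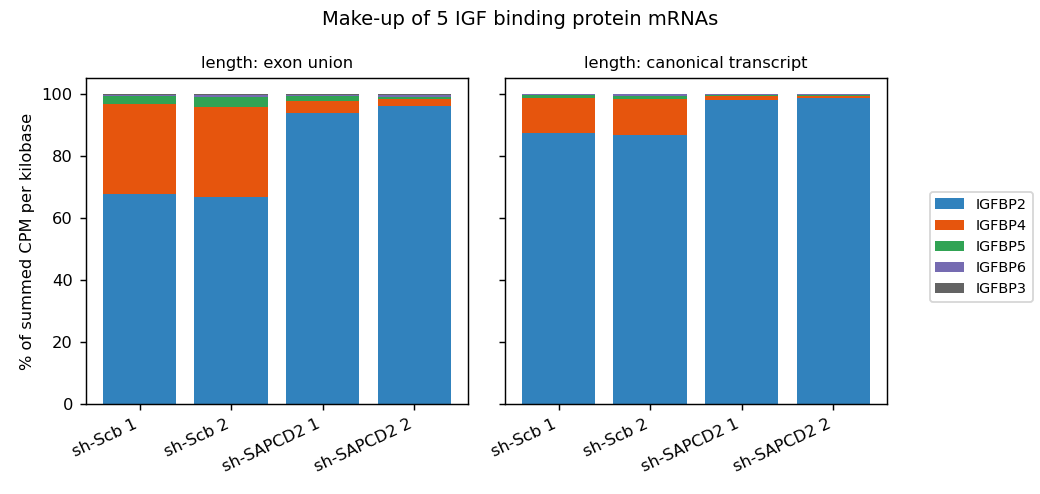
Share of each binding protein in the summed CPM per kilobase of the 5 binding protein mRNAs, in percent, as stacked bars for the 4 libraries, with lengths from the exon union (left) and from the canonical transcript (right). IGFBP4, in orange, takes 29.0% and 29.2% in sh-Scb and 3.82% and 2.23% in sh-SAPCD2 on the left.

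The genes whose pattern over the 4 libraries was most like that of IGF1R were FAM114A1, EML6 and KIF3B, a kinesin motor subunit, with Euclidean distances of 0.0409, 0.0700 and 0.0739 between centered log2 CPM among 15681 candidate genes. FAM114A1 had 17.1 and 17.3 CPM in sh-Scb and 48.0 and 44.8 CPM in sh-SAPCD2. The genes most like IGFBP4 were ENSG00000267194 (distance 0.0868), C12orf75 (0.1400) and CTSV (0.1720), which encodes cathepsin V. ENSG00000267194 is absent from GENCODE 44, so whether it overlaps IGFBP4 could not be checked. C12orf75 had 14.6 and 15.4 CPM in sh-Scb and 2.09 and 2.01 CPM in sh-SAPCD2. These distances rest on 4 libraries and describe likeness only.

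The other genes of the pathway were taken from a list of 111 genes by role, of which 97 were tested. Of these, 21 rose (21.6%, beside 12.4% of all tested genes) and 10 fell (10.3%, beside 12.5%), with a median log2 fold change of 0.18 against 0.02 over all tested genes. With a correction for GC content and length these counts became 34 and 17, while those of all tested genes went from 2326 and 2339 to 3880 and 3527. Leaving out a library in turn also moved the counts, of the pathway genes and of all tested genes alike. Adjusted p-values for these genes come from the same edgeR fit over all 18779 tested genes. The list and its roles were chosen with earlier results of these data known. Their counts, shares and adjusted p-values, here and below, are therefore a description and not independent evidence.

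Close to the binding proteins, 2 of 6 tested proteases and protease inhibitors were called higher (33.3%, beside 12.4% of all tested genes). None was called lower, beside 12.5% of all tested genes. STC1, an inhibitor of PAPP-A and so of the cleavage of IGFBP4, had 95 and 99 counts in sh-Scb and 495 and 560 counts in sh-SAPCD2 (log2 fold change 2.41, SE 0.169, edgeR adjusted p = 0.00201). ADAM12, a metalloprotease that cuts IGFBP3 and IGFBP5, rose by a log2 fold change of 1.90 (SE 0.171, edgeR adjusted p = 0.00278). PAPPA, which encodes PAPP-A, was not called (194 and 185 counts against 207 and 220, log2 fold change 0.14, SE 0.184, edgeR adjusted p = 0.606). Neither were PAPPA2 (-0.20) and STC2 (0.23). HTRA1 was not called either, at a log2 fold change of -1.81 (SE 0.636, edgeR adjusted p = 0.0861), the lowest of the 97 tested pathway genes. HTRA1 had 40 and 53 counts in sh-Scb and 4 and 24 in sh-SAPCD2. The other binding protein genes IGFBPL1 (-0.43) and IGFBP7 (0.64) were not called.

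Around IGF2, the neighbors of the imprinted 11p15 region and the regulators of IGF2 mRNA were examined, since IGF2 and H19 lie under common imprinting control. Of 7 tested 11p15 genes, 4 rose (57.1%, beside 12.4% of all tested genes) and none fell (beside 12.5%). SLC22A18 (log2 fold change 1.07), KCNQ1OT1 (0.37, groups overlapping) and KCNQ1 (-0.52) were not called, and whether the region moved as a unit was not tested. H19, the lncRNA next to IGF2, had 1073 CPM in each sh-Scb library and 1982 and 3317 CPM in the sh-SAPCD2 libraries (log2 fold change 1.30, SE 0.230, edgeR adjusted p = 0.0123). Its sh-SAPCD2 libraries differed by a ratio of 1.67, and 7.34% of 15682 genes lay at least as far apart. The H19 value was 0.89 without sh-SAPCD2 replicate 2 and 1.62 without sh-SAPCD2 replicate 1. PHLDA2 rose by 2.21 on the log2 scale, IGF2-AS by 1.61 and CDKN1C, a CDK inhibitor, by 1.10 (edgeR adjusted p = 0.00689, 0.0134 and 0.0475). IGF2-AS lies within IGF2 on the other strand, and with the strandedness not given its counts may hold reads of IGF2. CDKN1C had 200 and 461 counts in the sh-SAPCD2 libraries, and without sh-SAPCD2 replicate 2 its value was 0.58 and no longer called. Without the filter on low counts H19 and CDKN1C were not called (edgeR adjusted p = 0.0541 and 0.141). LIN28B, which represses let-7 miRNAs, rose from 1560 and 1521 counts to 4400 and 4240 (log2 fold change 1.47, SE 0.146, edgeR adjusted p = 0.00322). IGF2BP3, which binds IGF2 mRNA, rose by 0.68 (SE 0.118, edgeR adjusted p = 0.0117), and without either control library it was no longer called. FURIN, a protease that matures IGF precursors and receptors, rose by 0.89 (SE 0.170, edgeR adjusted p = 0.0155), and was not called without the filter on low counts (edgeR adjusted p = 0.0552) or without sh-Scb replicate 1 (edgeR adjusted p = 0.0579).

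Downstream of the receptors, genes moved both ways. Calls among receptor substrates and adaptors (8.33% higher, 16.7% lower) lay near those of all tested genes (12.4% and 12.5%). Among 12 tested receptor substrates and adaptors, IRS2, a docking protein of IGF1R and INSR, rose from 68.7 and 61.4 CPM to 157 and 174 CPM (log2 fold change 1.34, SE 0.116, edgeR adjusted p = 0.00263). GAB1 fell by 1.40 and SOS2 by 0.82 on the log2 scale (edgeR adjusted p = 0.00394 and 0.0127), and IRS1 was not called (log2 fold change -0.08, SE 0.121). Of 16 tested genes of PI3K, AKT and their brakes, 4 rose and none fell. These were the PI3K subunits PIK3CB (1.08) and PIK3R3 (0.80), and PIK3IP1 (1.24) and TRIB3 (1.25), which restrain PI3K and AKT. AKT1 and AKT2 were not called, with log2 fold changes of 0.50 and 0.11.

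Of 18 tested genes of the mTOR complexes and translation, 4 rose (22.2%, beside 12.4% of all tested genes) and 3 fell (16.7%, beside 12.5%). The mTOR inhibitor DEPTOR rose by 1.65, and the stress-induced sestrins SESN2 and SESN3 by 2.05 and 1.24 (edgeR adjusted p = 0.00218, 0.00406 and 0.00417). EIF4EBP2, a translation repressor that mTOR switches off, fell by 1.03 on the log2 scale (SE 0.111, edgeR adjusted p = 0.00376). RHEB (0.49) was also called higher, and MTOR (-0.44) and EIF4EBP1 (-0.79) lower (edgeR adjusted p = 0.0428, 0.0311 and 0.0250). GSK3B, a kinase that AKT inhibits, fell by 1.05 on the log2 scale (SE 0.146, edgeR adjusted p = 0.00646). It was the single call among 7 genes of the FOXO and GSK3 group (14.3% lower, beside 12.5% of all tested genes). In the RAS and ERK cascade, 1 of 10 rose (MAP2K1, 0.60) and 1 fell (NRAS, -0.40), and both lost the call with either control library left out and without the filter on low counts (edgeR adjusted p = 0.0613 for MAP2K1 and 0.105 for NRAS). Of 10 phosphatases and SOCS brakes, CISH (1.58) and SOCS6 (0.80) rose, while PTPRA (-0.86), SOCS2 (-0.78) and PTPN1 fell. SOS2 and SOCS6 were no longer called without sh-Scb replicate 1, PIK3R3 without sh-Scb replicate 2 and SOCS2 without either. None of the 3 tested growth hormone axis genes was called, beside 12.4% of all tested genes higher and 12.5% lower. GHR had at most 4 counts in a library.

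**Figure D4:**
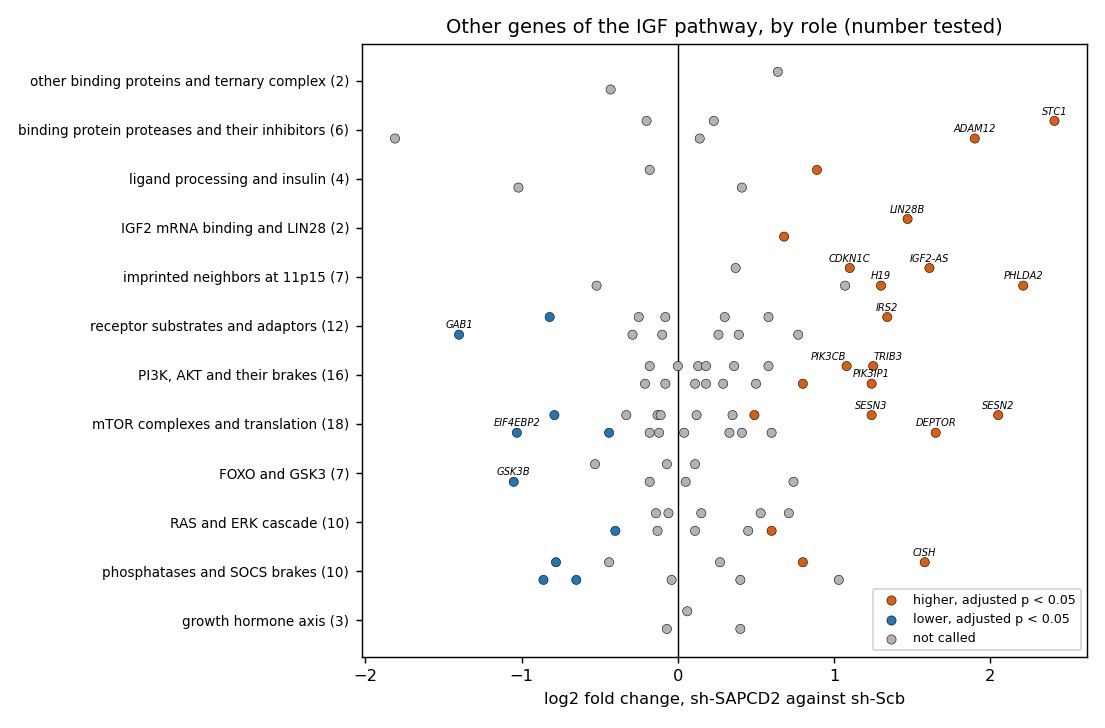
Log2 fold change of sh-SAPCD2 against sh-Scb from edgeR for the 97 tested pathway genes outside the 10 members, in rows by role, with orange for higher, blue for lower and grey for not called. Names mark called genes with an absolute log2 fold change over 1, and STC1 (2.41), PHLDA2 (2.21) and SESN2 (2.05) lie farthest to the right.

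The letters of the hairpin were compared with the members, because an shRNA can act on other mRNAs through its seed. The labels name only sh-SAPCD2, and sh-SAPCD2 #1 is taken here from the study's own heatmap. Its guide strand follows, with the seed, bases 2 to 8, in capitals.
sh-SAPCD2 #1 guide: aTGAAGGTggaatccagaggt

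The target lies in the coding sequence of SAPCD2, at chr9:137064663-137064683 on the - strand (hg38). The 7 letters complementary to the seed, ACCTTCA, occur in 12.5% of 13583 3′ UTRs of tested genes. Among the members they occur once each in IGF1R, IGFBP5 and IGFBP6 and 2 times in IGF2R. Of these, IGF1R and IGF2R were higher, IGFBP5 was lower and IGFBP6 was not called. A second form of the guide match, CCTTCAA, occurs in 12.2% of 3′ UTRs and once each in IGF1 and INSR. The passenger strand's forms CCAGAGG and CAGAGGA occur in 17.6% and 18.3% of 3′ UTRs. CCAGAGG occurs 2 times in IGF2R and once in IGFBP4, and CAGAGGA once each in IGF1, IGF2, INSR and IGFBP4. Passenger matches were thus present in members that were higher and in IGFBP4, which was lower, and IGFBP4, with a 3′ UTR of 1142 bases, held neither form of the guide match. Longer 3′ UTRs hold more matches, such as the 7088 bases of IGF1R, and whether a match bears on any level was not tested.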

How the data were processed

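RNA-seq of SK-N-BE(2) cells was analyzed from the table of whole-number counts per gene that the authors deposited, unscaled for library size. Libraries were made with an Illumina TruSeq kit, and reads were aligned to hg38 with HISAT2 2.2.0 and assembled with StringTie; the step from coverage to counts, the Ensembl release and the strandedness are not given in the sources used here. Groups came from the sample titles. Counts were scaled by TMM and tested with edgeR 4.0.16 (quasi-likelihood) in R 4.3.3 after filterByExpr (minimum count 10, minimum total 15), with Benjamini-Hochberg adjustment over 18779 genes. Scripts were tested on simulated data. Alternatives were DESeq2 1.42.0, no filter, other normalizations, a GC content and length correction, a replicate block and leaving out each library. Log2 CPM used a prior count of 2. Positions are from GENCODE 44 and promoters from RefSeq. Members and lists were chosen with earlier results of these data known. Named genes were the members, SAPCD2, up to 4 called genes per role with the smallest p and at least 1 CPM, genes overlapping a member, and the 3 genes nearest in pattern to IGF1R and IGFBP4. Marker genes, PAPPA, STC2, PAPPA2, HTRA1, IGFBPL1, IGFBP7, SLC22A18, KCNQ1OT1, KCNQ1, IRS1, AKT1, AKT2, RHEB, MTOR, EIF4EBP1, PTPN1 and GHR were named outside this rule, after their values were seen.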

Additional observations from a re-analysis of the deposited data

How the results depend on the processing

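Over 107 alternative values for the fold changes of the members, 98 kept direction and call, 6 kept direction only and 3 changed sign. The sign changes were IGFBP3 without sh-Scb replicate 2 (0.10) and without sh-SAPCD2 replicate 1 (0.11), and IGFBP6 without sh-SAPCD2 replicate 2 (-0.11), while the lowest and highest values without a library were -0.26 and 0.11 for IGFBP3 and -0.11 and 1.03 for IGFBP6, which had 17 to 47 counts per library. The number of members called ranged from 3 to 5 higher and from 1 to 2 lower when a library was left out, and was 2 and 1 with an absolute log2 fold change over 1. For the other pathway genes the ranges without a library were 16 to 36 higher and 6 to 22 lower, and for all tested genes 1176 to 4396 higher and 1146 to 4014 lower. With the GC content and length correction, 34 pathway genes were higher and 17 lower, and 3880 and 3527 of all genes. Without the filter on low counts, 6 pathway genes were lower, and 1081 genes were higher and 1180 lower in all. With an absolute log2 fold change over 1, 3 pathway genes were lower, and 880 genes were higher and 968 lower. With the replicate block, 5 members were higher and 2 lower, 29 and 10 pathway genes, and 2860 and 2701 of all genes. Of the members, SAPCD2 and the called pathway genes named by rule, NRAS alone changed call with this block (edgeR adjusted p = 0.0532). For genes named outside the rule, such as AKT1 and HTRA1, single values under the alternatives are not given. With the replicate block and the GC content and length correction together, 32 pathway genes were higher and 17 lower, and 3788 of all genes were higher. Same-numbered libraries deviated from their group means with a correlation of -0.0188, so the numbers were not taken as pairs. Leaving out any of the 4 libraries moved the number of pathway genes called lower by over 1.5 times. The cause of these changes was not tested. With 2 libraries per group, every SD rests on a single difference, and IGF1, IGFBP3 and IGFBP6 allow no statement on direction at this depth.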
